A study of Danio rerio with 2 samples.

Results

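The 8 genes described here encode proteins that carry lipid or iron in plasma, or that are abundant in plasma or liver: pltp, apoeb, apoea, apoa1b, apoa2, tfa, fabp10a and serpina1. They were taken by name from the 24900 genes of the count tables, and all 8 were listed there. They were proposed with earlier results of these data in view, so their levels in the 2 genotypes are given as a description, with no test of those differences. Of the 8 genes, 6 had at least 10 counts over the cells used, and apoea and serpina1 had none.

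Green fluorescent cells were sorted singly from the islets of zebrafish larvae at 7 dpf and sequenced from the 3′ end by a modified Smart-seq2 method. There were 2 samples: gcgr-/-;Tg(gcga:GFP), in which both glucagon receptor genes, gcgra and gcgrb, were disrupted, and control, Tg(gcga:GFP). The reporter, in which the gcga promoter drives GFP, was carried by both, so that the sort selected cells by a reporter of the glucagon gene gcga. Each genotype had 1 sample of islets from several larvae, so the cells of a genotype are not replicates and a difference between the genotypes cannot be told apart from a difference between 2 preparations.

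Lipids travel in plasma as lipoproteins, particles whose surface carries apolipoproteins. Apolipoprotein A-I and apolipoprotein A-II form high density lipoprotein, apolipoprotein E is a ligand of lipoprotein receptors, and phospholipid transfer protein moves phospholipid between particles. Liver is the main source of most of these proteins in vertebrates, together with the iron carrier transferrin and the protease inhibitor alpha-1 antitrypsin, and several of them are also made by the yolk syncytial layer or the gut of fish larvae, by macrophages or by glia.

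Cells were used if 500 genes or more were detected in them and mitochondrial genes took no more than 10% of their counts, 288 of 384 gcgr-/- cells and 156 of 192 control cells, with a median of 25522.5 counts per gcgr-/- cell and 22042 counts per control cell. Each cell was classed by its leading hormone, the highest of the 2 glucagon genes (gcga and gcgb, joined as glucagon), insulin (ins), ghrelin (ghrl), gip and the 3 somatostatin genes (sst1.1, sst1.2 and sst2) where it took at least 1% of its counts. All the cells were labelled as alpha cells, but glucagon led in 106 of 288 gcgr-/- cells (36.8%) and in 3 of 156 control cells (1.92%). The other cells were led by ins (54 gcgr-/- cells and 41 control cells), sst1.1 (52 and 36), sst1.2 (29 each), sst2 (6 each), ghrl (12 and 3) or gip (2 and 7), or had no leading hormone (27 and 31). The cell names begin with a letter, A to F, and the cells that share a letter are called a plate here, although the labels do not say what the letters stand for. Libraries and plates, as read from these names, each held 1 genotype only, so plate and genotype cannot be told apart. The 48 cell barcodes were all used in both samples, each in 12 of the 24 libraries, and the 576 cell names were all distinct.

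Levels are given as counts per 1000000 (CPM) of the summed counts of a group of cells. Intervals are at the 95% level and cover counting error only. No collapsing of PCR copies is stated, so copies of a read were probably counted as separate reads. In that case the intervals understate the error. A level of 1 gene cannot be set against that of another here, since 3′ end reads were counted on coding sequence.

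The members differed first in how many cells held them. Taken over both genotypes, pltp was counted in 217 of 444 cells, apoeb in 56, tfa in 23, apoa1b in 6, apoa2 in 4 and fabp10a in 3. The 5 highest cells held 25.9% of the pltp counts, and 19 cells were needed to reach 50%. The 5 highest cells held 55.8% of the apoeb counts and 89.9% of the tfa counts. For apoa1b that share was 98.1%, and apoa2 and fabp10a had fewer than 5 cells in which they were counted. Thus 5 of the 6 measured members had at least 50% of their counts in 5 cells, against 77.2% of the 13594 genes with at least 10 counts, and pltp was the exception. Apoa1b, apoa2 and fabp10a, counted in 6 cells or fewer, could only fall on that side, so this count measures no trait of the members.

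**Figure D1:**
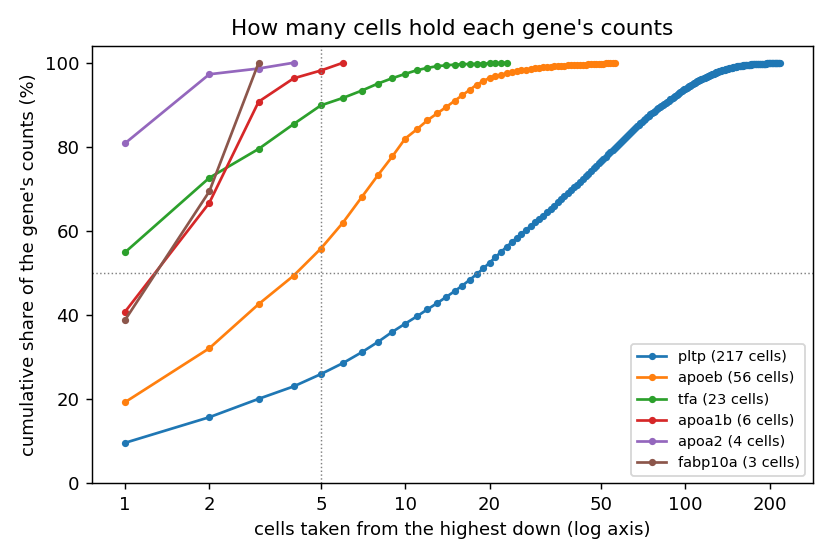
Cumulative share of each member's counts (%, y axis) against the number of cells taken from the highest down (x axis, log), over the 444 cells of both genotypes, with 1 line for each of the 6 members that were counted. Dotted lines mark 5 cells and 50% of the counts. The pltp line crosses 50% at 19 cells, and the other 5 lines cross it within the 5 highest cells.

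At the level of the whole sample, 4 of the 6 measured members, pltp, tfa, apoa1b and apoa2, were at least 2-fold higher in gcgr-/- cells, against 34.3% of all 13594 genes, and 2 of the 6, apoeb and fabp10a, were at least 2-fold lower, against 24.9% of all genes. The median log2 ratio of the 6 was 2.60, against 0.26 over all genes. Since apoa1b and apoa2 had no count in control cells, they reached 10 counts only through the gcgr-/- sample and had to differ. They entered the median with 3 counts taken for control, so neither that median nor the count of 4 measures a shift of the members.

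Pltp, the phospholipid transfer protein, was the member with the most counts. It had 11510 counts in gcgr-/- cells (1119 CPM, interval 1099 to 1140) and 1205 counts in control cells (253 CPM, interval 239 to 268), a ratio of 4.42 (interval 4.17 to 4.70). At least 1 count was found in 151 of 288 gcgr-/- cells (52.4%) and in 66 of 156 control cells (42.3%). After every cell was thinned to 5000 counts the shares were 42.8% and 28.4%. By plate, gcgr-/- cells had 1160, 1211, 1548 and 561 CPM, and control cells 224 and 302 CPM. By library the genotypes overlapped, since the 16 gcgr-/- libraries ranged between 237 and 1962 CPM (median 902 CPM) and the 8 control libraries between 84.9 and 628 CPM (median 202 CPM).

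Glucagon-led cells carried most of the pltp of the gcgr-/- sample. They held 8800 of its 11510 pltp counts (76.5%), at 2136 CPM (interval 2092 to 2181), with pltp counted in 83 of 106 cells (78.3%). Cells with no leading hormone followed at 1751 CPM, in 15 of 27 cells. The level was 401 CPM in sst1.1-led cells (18 of 52 cells), 371 CPM in ins-led cells (26 of 54 cells), 178 CPM in ghrl-led cells (3 of 12 cells), 103 CPM in sst1.2-led cells (5 of 29 cells, 17.2%) and 3.88 CPM in sst2-led cells (1 of 6 cells). A single cell held 72 of the 74 counts of ghrl-led cells and another 103 of the 138 counts of sst1.2-led cells, which were at 29.3 CPM without it, so the places of these classes in the order rested on 1 cell each. Median depth was 28798 counts in sst1.2-led cells and 27511.5 counts in glucagon-led cells. Of the neighbours in this order, sst1.1-led and ins-led gcgr-/- cells had intervals of counting error that overlapped.

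Glucagon-led gcgr-/- cells had 4.86 times the pltp level of the other gcgr-/- cells (interval 4.65 to 5.07), 2136 CPM against 440 CPM, where 22.6% of 12102 genes were at least 2-fold higher in glucagon-led cells. This ratio depended on where the limit for a leading hormone was set: it was 7.03 with a limit of 0.5% of counts and 1.48 with a limit of 5%. It was 2.70 among the cells the authors kept.

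Within the glucagon-led gcgr-/- cells, pltp was highest where gcga was lowest. The 106 cells were ordered by their gcga level and split into 4 sets of 26 or 27 cells. The set with the least gcga (10636 to 34265 CPM) had 4556 CPM of pltp, with pltp counted in 24 of 27 cells. The second set had 2845 CPM (21 of 27 cells) and the third 1953 CPM (21 of 26 cells). The set with the most gcga (198908 to 443516 CPM) had 407 CPM of pltp, in 17 of 26 cells. The medians over cells ran the same way, at 3173, 1720, 914 and 244 CPM in order of rising gcga, and the set with the most gcga was the most deeply sequenced, with a median of 37813.5 counts.

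A gene that takes a large part of a cell's counts lowers the CPM of the others, so pltp was also set against the counts outside the 8 hormone genes. On that scale the sets had 4727, 3219, 2501 and 683 pltp counts per 1000000. Without the cell with the most pltp counts in each set they had 3632, 1971, 1732 and 325 CPM. On each of the 4 plates, the cells with more gcga had a lower summed level of pltp than the cells with less gcga: 877 against 3570 CPM on plate C, 1249 against 2622 CPM on plate D, 1371 against 5137 CPM on plate E, and 501 against 2922 CPM on plate F. By cells with a pltp count the order was reversed on plate D, 12 of 15 against 10 of 15 cells. These shares were 8 of 10 against 9 of 9 cells on plate C, 11 of 15 against 13 of 14 on plate E, and 8 of 14 against 12 of 14 on plate F. Across the 106 cells Pearson's r of log2(CPM + 100) was -0.42 for pltp with gcga and -0.29 for pltp with gcgb, a description over cells that share libraries and a total.

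**Figure D2:**
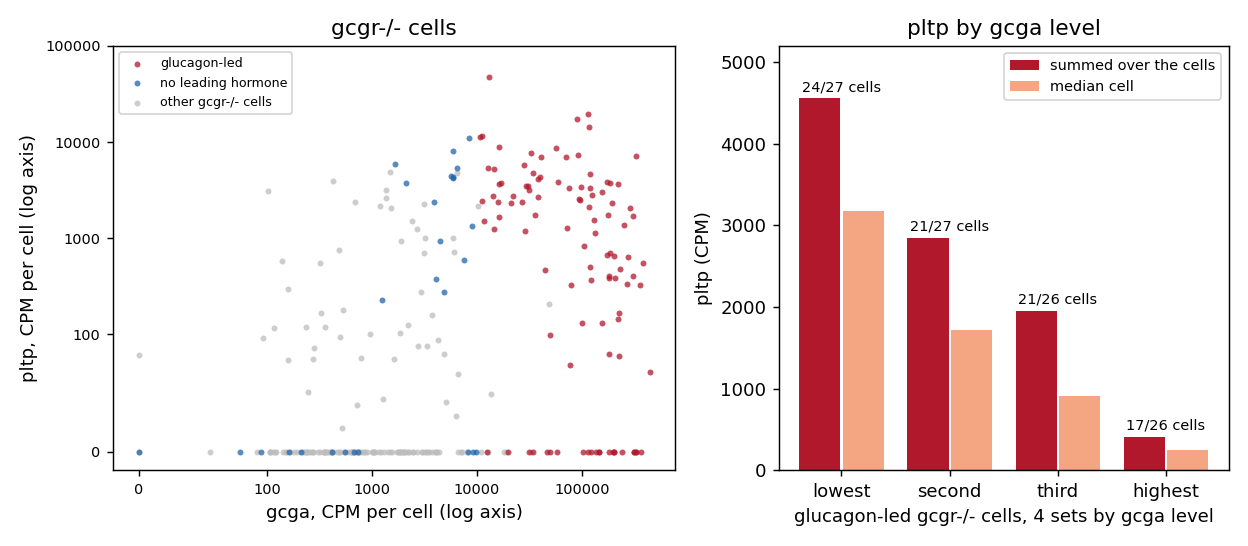
Left, pltp (CPM, log axis) against gcga (CPM, log axis) in each gcgr-/- cell, coloured by glucagon-led cells, cells with no leading hormone and other cells, with values of 0 drawn at the edge. Right, pltp (CPM) in 4 sets of the 106 glucagon-led gcgr-/- cells by gcga, as the summed level (dark bars) and the median cell (light bars), with the cells in which pltp was counted. The summed level is 4556 CPM in the set with the least gcga and 407 CPM in the set with the most.

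The gcgr-/- cells with no leading hormone lay on the other side of the 1% limit, and the order within glucagon-led cells did not extend to them: those with more gcga were the ones with pltp. Of the 27 cells, 18 had at least 1000 CPM of gcga, and pltp was counted in 15 of these 18 cells, at 2555 CPM. In the 9 cells with less gcga no pltp count was found, which allows a share of cells with a count of up to 33.3% (3 of 9 cells). Depth was alike in both, with medians of 24451 and 22926 counts. The limit of 1000 CPM was chosen with the values in view. In control cells with no leading hormone, only 2 of 31 cells reached 1000 CPM of gcga, and the class as a whole had 11 pltp counts in 7 cells (11.9 CPM).

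Of the 4 classes with enough cells in both genotypes, the ratio was highest in cells with no leading hormone, 1751 CPM in gcgr-/- cells against 11.9 CPM in control cells, or 147 (interval 81.9 to 295). This ratio sets unlike cells against each other. In that class the median cell had 4102 CPM of gcga in gcgr-/- and 60.6 CPM in control. The median sum of 14 epithelial markers was 0 CPM in gcgr-/- and 6637 CPM in control. Cells of the other classes also contained pltp in both genotypes. In control cells, ins-led cells held 63.5% of the pltp counts and sst1.1-led cells 31.0%, and pltp was counted in 30 of 41 ins-led cells and in 22 of 36 sst1.1-led cells. Ins-led cells had 371 CPM in gcgr-/- and 535 CPM in control, a ratio of 0.693 (interval 0.625 to 0.768) where the median over all genes was 1.14, and the order was kept without the cell with the most pltp counts in each genotype (267 and 460 CPM).

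The ratio was 1.38 (interval 1.21 to 1.57) in sst1.1-led cells, 401 CPM in gcgr-/- and 291 CPM in control. The median ratio over all genes was 1.46 in that class, so pltp lay below it. The pltp ratio rested on 1 gcgr-/- cell with 335 of the 604 counts. Without the highest cell of each genotype the levels were 189 CPM in gcgr-/- and 244 CPM in control, a ratio of 0.775. Without plate C, which held that cell, the ratio was 0.830. In sst1.2-led cells the ratio was 2.78 (interval 1.70 to 4.83), 103 CPM in gcgr-/- and 37.1 CPM in control, and it was 0.952 without plate D. In these 4 classes 38.1%, 43.1%, 36.6% and 43% of the genes tested were at least 2-fold higher in gcgr-/- cells (ins-led, sst1.1-led, sst1.2-led and no leading hormone, in that order).

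Over the cells led by a hormone other than glucagon, pltp was at 280 CPM in the 155 gcgr-/- cells and at 310 CPM in the 122 control cells, a ratio of 0.903 (interval 0.836 to 0.975). It was counted in 53 of the 155 gcgr-/- cells and in 58 of the 122 control cells. The 4.42-fold difference between whole samples thus lay in the glucagon-led cells and the cells with no leading hormone. Glucagon-led control cells were too few for a comparison, with 37 pltp counts in 1 of 3 cells (337 CPM), and the share of cells that were glucagon-led cannot be separated from the level per cell in the whole-sample ratio.

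**Figure D3:**
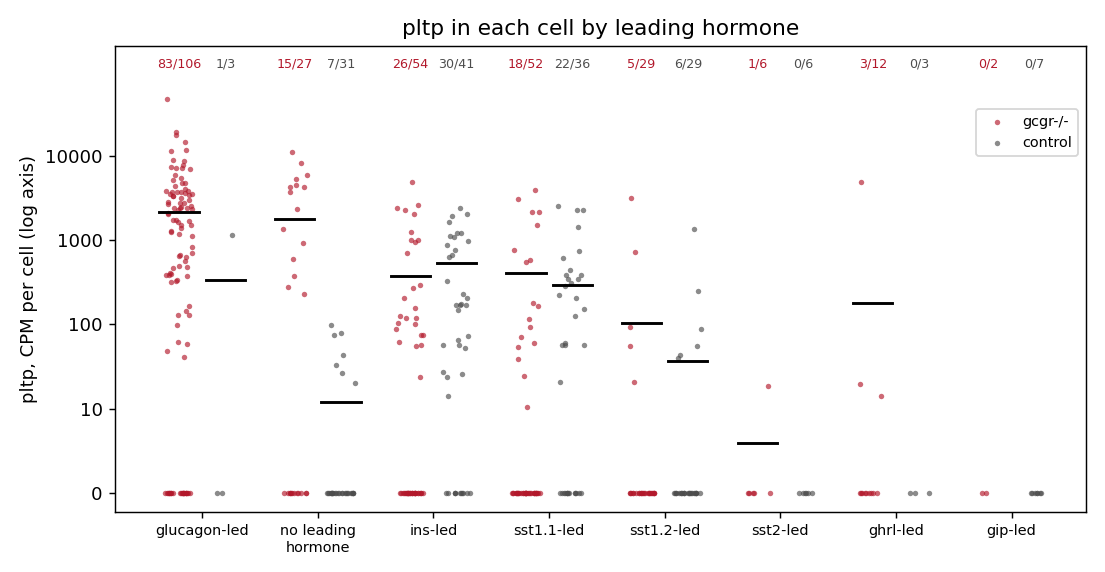
Level of pltp (CPM, log axis) in each cell, by leading hormone (x axis), with gcgr-/- cells in red on the left and control cells in grey on the right of each class. Black lines are the summed level of the class, values of 0 are drawn at the bottom, and the fractions give cells with a pltp count of all cells. The summed level is 2136 CPM in glucagon-led gcgr-/- cells, 371 CPM in ins-led gcgr-/- cells and 535 CPM in ins-led control cells.

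The genes whose level was most like that of pltp over the 444 cells, among 4679 genes counted in at least 5% of them, were pnoca, igfbp1b, gcga, gcgb and si:dkey-4p15.3, with Pearson's r of log2(CPM + 100) of 0.61, 0.48, 0.45, 0.42 and 0.40. Pnoca encodes a precursor of the neuropeptide nociceptin, and igfbp1b a binding protein of insulin-like growth factors. Pnoca was counted in 127 of the 151 gcgr-/- cells with pltp. Igfbp1b was counted in fewer cells, 76 in both genotypes, and 65 of these also had pltp. Within glucagon-led gcgr-/- cells r was 0.39 with pnoca and 0.51 with igfbp1b, so both were positive where that with gcga was negative. Among control cells alone the genes most like pltp were others, CABZ01073265.1 (r = 0.49) and SLC5A10 (r = 0.46), and r with gcga was 0.18. These values describe cells that share libraries and depth.

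Apoeb, 1 of 2 zebrafish copies of apolipoprotein E, was the member with the most counts in control cells. It had 418 counts in gcgr-/- cells (40.6 CPM, interval 36.8 to 44.7) and 2371 counts in control cells (498 CPM, interval 478 to 519), a ratio of 0.0816 (interval 0.0734 to 0.0906), or 12.3-fold lower in gcgr-/- cells. It was counted in 16 of 288 gcgr-/- cells (5.56%) and in 40 of 156 control cells (25.6%). By plate the level was 14.4, 57.6, 0.684 and 90.4 CPM in gcgr-/- cells and 485 and 519 CPM in control cells. By library the genotypes overlapped, since 2 of the 8 control libraries had no apoeb count and the gcgr-/- libraries reached 307 CPM. Without plate F the ratio was 0.0445.

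The control cells with no leading hormone held 2238 of the 2371 control counts (94.4%), and had 69.9 times the apoeb level of the other control cells, where 25.2% of genes were at least 2-fold higher in that class. Apoeb was counted in 1 of 27 such gcgr-/- cells (146 counts, 219 CPM) and in 18 of 31 such control cells (2424 CPM), a ratio of 0.0902 (interval 0.0757 to 0.107), where 33.3% of genes were at least 2-fold lower in gcgr-/- cells. Without plate F, which held that 1 gcgr-/- cell, the ratio was 0.00305 with 3 counts taken for gcgr-/-. Outside that class apoeb was at 28.3 CPM in 261 gcgr-/- cells and at 34.7 CPM in 125 control cells, a ratio of 0.816 (interval 0.661 to 1.01). When glucagon-led cells were left out as well, the levels were 35.8 CPM in gcgr-/- cells and 35.7 CPM in control cells, a ratio of 1.0 (interval 0.802 to 1.26), although apoeb was counted in 9 of 155 gcgr-/- cells and in 22 of 122 control cells. In summed counts the 12.3-fold difference between whole samples thus lay in the cells with no leading hormone. The near equality outside that class rested on few gcgr-/- cells. An sst1.2-led cell held 118 and an sst1.1-led cell 60 of the 272 gcgr-/- counts there. Apoeb was counted there in 15 of 261 gcgr-/- cells and in 22 of 125 control cells.

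Within single classes the apoeb counts came from few cells. In ins-led cells the level was 4.1 CPM in gcgr-/- (8 counts in 3 cells) and 55.2 CPM in control (79 counts in 7 cells), a ratio of 0.0743 (interval 0.0310 to 0.154), and 61 of the 79 control counts were in 1 cell. Without plate B that ratio was 0.385 and without plate D 0.0240. In this class 31.6% of genes were at least 2-fold lower in gcgr-/- cells. In sst1.1-led cells the level was 45.8 CPM in gcgr-/- and 10.1 CPM in control, a ratio of 4.52 (interval 2.48 to 8.92), with 60 of the 69 gcgr-/- counts in 1 cell on plate F. Without plate F that ratio was 0.689. Among sst1.1-led cells 27.8% of genes were at least 2-fold lower in gcgr-/- cells, and fabp10a, with no count in gcgr-/- and 19 counts in 1 control cell, was the member that was. Fabp10a reached 10 counts through that cell alone and could only be lower. In sst1.2-led cells the ratio was 1.66 (interval 1.08 to 2.65), with 118 of the 119 gcgr-/- counts in 1 cell, and it was 0.0951 without the highest cell of each genotype.

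**Figure D4:**
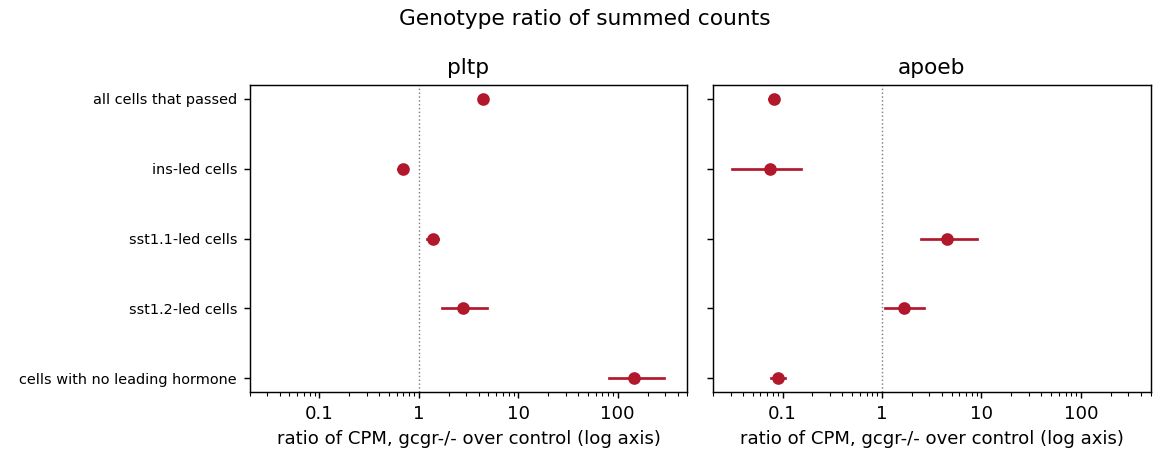
Ratio of summed CPM, gcgr-/- over control (x axis, log), for pltp (left) and apoeb (right), over all cells and within 4 leading hormone classes (y axis), with bars for the 95% interval of counting error and a dotted line at 1. The pltp points run between 0.693 in ins-led cells and 147 in cells with no leading hormone, and the apoeb points between 0.0743 in ins-led cells and 4.52 in sst1.1-led cells. Cells with no leading hormone differed between the genotypes in gcga and in epithelial markers.

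Most apoeb counts, though not all cells with apoeb, were in cells with transcripts of keratins and other epithelial genes. Cells with krt91, a keratin gene, held 249 of the 418 apoeb counts in gcgr-/- and 2318 of the 2371 in control, whereas 12 of the 16 gcgr-/- cells and 13 of the 40 control cells with apoeb had no krt91 count. The genes most like apoeb over the 444 cells were krt91, cfl1l, anxa1a, s100a10b and sparc, with Pearson's r of 0.83, 0.82, 0.80, 0.78 and 0.77. They encode a keratin, a cofilin-like actin-binding protein, an annexin, an S100 protein and a matrix protein. In control cells alone the same 5 genes led, with r between 0.83 and 0.88. Among control cells with no leading hormone, krt91 was counted in 16 of the 18 cells with apoeb and in 2 of the 13 cells without it, and the epithelial adhesion gene epcam in 17 of 18 and in 6 of 13 cells. The summed level of 14 epithelial markers had a median of 34571 CPM in the 18 cells with apoeb and 1187 CPM in the 13 cells without it.

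The 9 cells with the most apoeb counts, 1 gcgr-/- cell and 8 control cells, all had no leading hormone. They held 77.7% of all apoeb counts, and each had between 6 and 10 of the 14 epithelial markers. At least 5 of these markers were counted in 5 of 288 gcgr-/- cells (1.74%) and in 20 of 156 control cells (12.8%). In such cells apoeb was at 1002 CPM in gcgr-/- (4 of 5 cells) and at 2614 CPM in control (17 of 20 cells). In the remaining cells it was at 16.8 CPM in gcgr-/- and at 29.8 CPM in control, a ratio of 0.566 (interval 0.444 to 0.723). The summed level of the whole marker list was 815 CPM in gcgr-/- cells and 6670 CPM in control cells, and the part of these cells in the apoeb difference was measured only by leaving them out. The limit of 5 markers was chosen with the values in view.

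Apolipoprotein E is also known as a transcript of macrophages and microglia. Of 17 macrophage markers, 7 were counted in gcgr-/- cells and 5 in control cells, at a summed 465 and 278 CPM. Of these sums grn1 made up 96.3% in gcgr-/- cells and 91.8% in control cells. The markers csf1ra, coro1a, lygl1, grn1 and grn2 were counted in both samples. Mpeg1.1, mfap4, marco, lcp1, ptprc, spi1b, c1qa, c1qb, c1qc and cd74a were at 0 in both. In control cells with no leading hormone 3 markers were counted, csf1ra, lygl1 and grn1, at a summed 68.2 CPM. Whether macrophage transcripts had a part in the apoeb counts was not tested. In RefSeq's annotation of the GRCz12tu assembly apoeb neighbours apoc1, apoc2, apoc4, apoa2 and copies of apoa4b. Apoc1, an apolipoprotein of the same cluster, had 68 counts in gcgr-/- cells and 115 counts in control cells, and all 115 were in 1 cell, the cell with the most apoeb counts (537) of all. Apoc2 and apoc4 were at 0 in every cell. Apoea, the other copy of apolipoprotein E, had no count in any of the 576 sequenced cells. At 3 counts per sample this allows up to 0.292 CPM in the gcgr-/- cells used and 0.63 CPM in the control cells used. These limits cover reads on coding sequence only, so they do not bound the level of a transcript whose 3′ end reads fall outside it.

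Tfa, the iron carrier transferrin, was counted in few cells at high level. It had 1928 counts in 21 gcgr-/- cells (187 CPM, interval 179 to 196) and 34 counts in 2 control cells (7.14 CPM, interval 4.95 to 9.98), a ratio of 26.3 (interval 18.7 to 38). A single sst1.2-led gcgr-/- cell held 1077 of these counts, 28353 CPM in that cell, and the next held 348, 135, 116 and 87. By plate, gcgr-/- cells had 470, 70.8, 179 and 58.5 CPM and control cells 0.337 and 18.4 CPM. Since 33 of the 34 control counts were in 1 cell on plate B, the ratio was 557 without plate B and 10.2 without plate A, and it was 14.9 without plate C, which held the highest gcgr-/- cell.

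Cells led by the somatostatin genes sst1.2 and sst2 held nearly all of it. Tfa was counted in 12 of 35 such gcgr-/- cells (34.3%, interval 19.1 to 52.2) from 10 libraries, and in 1 of 35 such control cells (2.86%, interval 0.0723 to 14.9). In the other cells it was counted in 9 of 253 gcgr-/- cells (3.56%) and in 1 of 121 control cells (0.826%). The level in sst1.2-led cells was 1303 CPM in gcgr-/- (1744 counts in 9 of 29 cells) and 68.0 CPM in control (33 counts in 1 of 29 cells), a ratio of 19.2 (interval 13.6 to 27.9). Depth was unequal in this class, with medians of 28798 counts in gcgr-/- and 14403 counts in control. In sst2-led cells tfa had 147 counts in 3 of 6 gcgr-/- cells and none in 6 control cells. Without plate C the level in sst1.2-led gcgr-/- cells was 672 CPM. Without the 1 highest gcgr-/- cell the level in sst1.2-led and sst2-led gcgr-/- cells together was 522 CPM. Within the gcgr-/- sample sst1.2-led cells had 63.4 times the tfa level of the other cells, where 19.4% of genes were at least 2-fold higher in sst1.2-led cells.

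**Figure D5:**
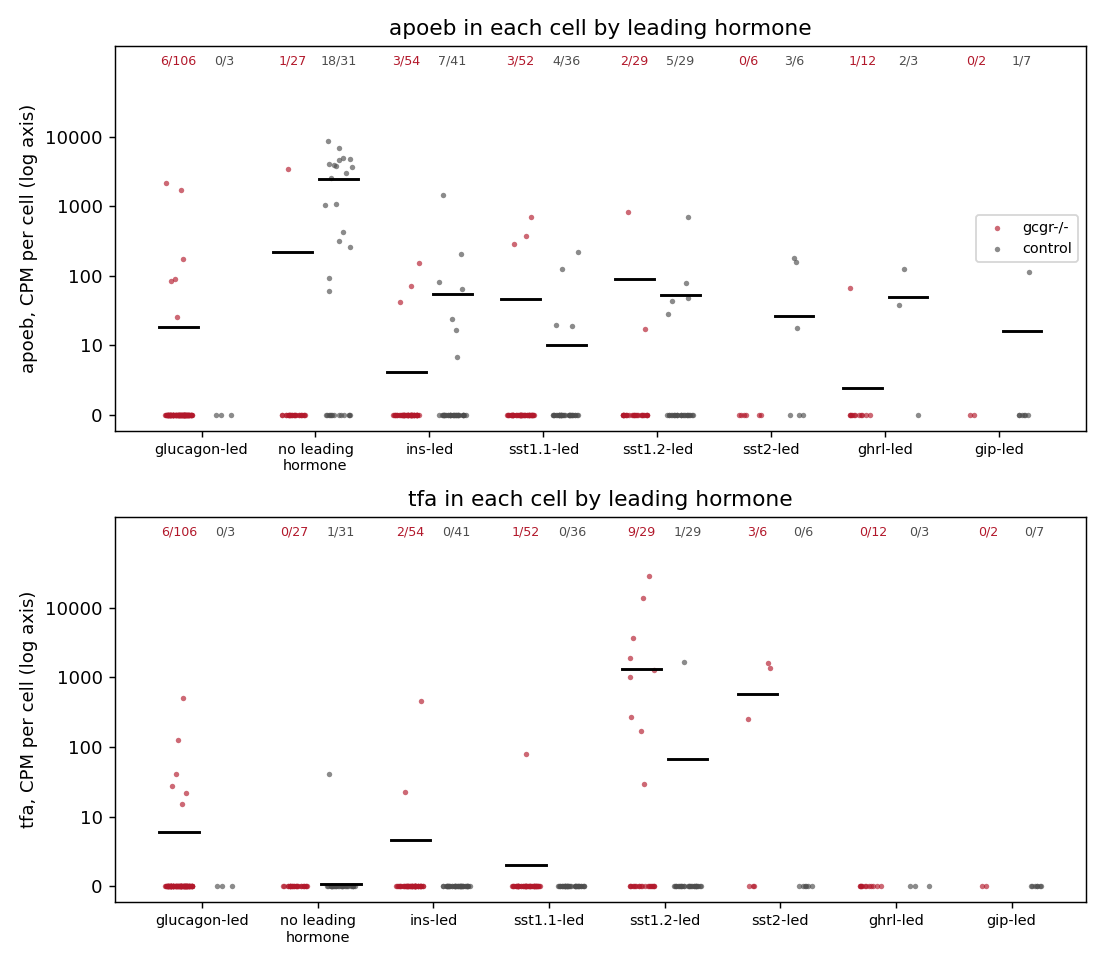
Levels of apoeb (top) and tfa (bottom) in each cell (CPM, log axis), by leading hormone (x axis), drawn as for pltp, with gcgr-/- cells in red on the left and control cells in grey on the right of each class. Apoeb was counted in 18 of 31 control cells with no leading hormone, and tfa in 9 of 29 sst1.2-led gcgr-/- cells.

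The high density lipoprotein genes apoa1b and apoa2 were found in gcgr-/- cells only, at low counts. Apoa1b, 1 of 2 zebrafish copies of apolipoprotein A-I, had 54 counts in 6 cells, at 22, 14, 13, 3, 1 and 1 counts. They were led by ghrl, sst1.1, ins, no hormone, sst1.1 and sst1.2 in that order, and 4 of the 6 were in 1 library of plate F. Apoa1b was thus counted in 2.08% of gcgr-/- cells (interval 0.768 to 4.48) and in 0% of control cells (interval 0 to 2.34), and these intervals overlapped. With no count in control cells the sample level was at least 8.33-fold higher in gcgr-/- cells, with 3 counts taken for control. Counting error is left out of that bound. This bound was 3.14 without plate A, 5.20 without plate B and 4.66 without plate F, and it was 1.27, under 2-fold, after thinning to 5000 counts per cell. Apoa2 had 73 counts in 4 cells, of which 59 and 12 were in 2 ins-led cells and the others in a gip-led and a glucagon-led cell. By the same bound it was at least 11.3-fold higher in gcgr-/- cells. Its share of cells was 1.39% in gcgr-/- (interval 0.380 to 3.52) and 0% in control (interval 0 to 2.34), again with overlap. Both ins-led cells were among those the authors removed, so that 1 apoa2 count was left in the cells they kept. Without its highest cell apoa2 was at least 2.17-fold higher, without plate E, which held that cell, at least 2.80-fold, and without plates A and B in turn at least 4.24-fold and 7.03-fold higher.

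Fabp10a, a fatty acid binding protein of zebrafish liver, had 15 counts in 1 gcgr-/- cell and 19 and 15 counts in 2 control cells, a ratio of 0.204 (interval 0.103 to 0.385), or 0.0560 without plate F with 3 counts taken for gcgr-/-. The gcgr-/- cell had no leading hormone and was in the library that held 4 of the 6 apoa1b cells, and the control cells were led by sst1.1 and ins. Serpina1, the alpha-1 antitrypsin gene, had no count in any sequenced cell, with the same limits as apoea. At least 1 of apoa1b, apoa2 and fabp10a was counted in 11 gcgr-/- cells and in 2 control cells, and no cell held 2 of them.

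Markers of liver and enterocytes were looked up in these cells, and the source of the apoa1b, apoa2 and fabp10a counts was not tested. Of 18 liver markers, 0 or 1 was counted in each of the 13 cells with apoa1b, apoa2 or fabp10a, and that 1 was the complement gene c9. Of 10 enterocyte markers, none was counted in any of the 13 cells. Over the whole samples 12 of the 18 liver markers were counted in gcgr-/- cells and 7 in control cells, at a summed 336 and 415 CPM, of which c9 made up 86.4% in gcgr-/- cells and 96.5% in control cells. Without c9 the sums were 45.8 CPM in gcgr-/- cells and 14.5 CPM in control cells. The liver genes fga, ambp, ahsg1, itih3a and f2 were at 0 in both samples. Cp, ttr, plg, apobb.1, hp and c9 were counted in both, and gc in control cells only. Fgb, fgg, serpina1l, serpinc1, fetub and vtna were counted in gcgr-/- cells only. Apoa1b was found with apoeb in 2 gcgr-/- cells, and fabp10a with pltp in both control cells.

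Genes that act with the members were described from lists of their pathways, which were drawn up with earlier results of these data known, and their counts stand beside the 34.3% of all genes that were at least 2-fold higher, the 24.9% that were at least 2-fold lower and the median log2 ratio of 0.26 over all genes. A gene with no count in 1 genotype was set at 3 counts there and could only lie on 1 side. Of 21 listed apolipoproteins 11 were counted, and of the 7 with at least 10 counts 5 were at least 2-fold higher and 2 at least 2-fold lower in gcgr-/- cells, with a median log2 ratio of 1.70. Among the 5 were apoa1b and apoa2, which had no control count, so this count and median do not measure a shift of the list. Clusterin, clu, an extracellular chaperone that is also apolipoprotein J, was spread over cells as pltp was. It was counted in 208 of 444 cells, its 5 highest cells held 11.9% of its counts, and its level was 333 CPM in gcgr-/- cells and 150 CPM in control cells, a ratio of 2.21 (interval 2.04 to 2.40). Its ratio was above 1 in each of the 4 classes compared, 1.57 in ins-led, 2.43 in sst1.1-led, 7.18 in sst1.2-led cells and 2.59 in cells with no leading hormone. Apoda.2, an apolipoprotein D gene, was at 30.8 CPM in gcgr-/- cells and 5.67 CPM in control cells, with 54.4% of its counts in 1 cell.

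Among the genes of lipid transfer and remodelling, abca1a, a cell membrane transporter that loads lipid on apolipoprotein A-I, was at 50.4 CPM in gcgr-/- cells and 18.3 CPM in control cells, a ratio of 2.76 (interval 2.19 to 3.50). It was counted in 95 cells, and its ratio was 2.08 in ins-led, 5.66 in sst1.1-led, 4.27 in sst1.2-led cells and 10.1 in cells with no leading hormone. Its paralogue abca1b was at 28.2 CPM in gcgr-/- cells and 55.9 CPM in control cells, a ratio of 0.505, with 187 of its 266 control counts in cells with no leading hormone. The ratio of abca1b was 0.496 in ins-led cells, 0.487 in sst1.1-led cells and 0.0222 in cells with no leading hormone, but in sst1.2-led cells it had 82 counts in gcgr-/- and none in control, at least 9.92-fold higher with 3 counts taken for control. Angptl4, an inhibitor of lipoprotein lipase, was at 218 CPM in gcgr-/- cells and 140 CPM in control cells, with ratios of 2.48 in ins-led and 4.79 in sst1.1-led cells, 0.767 (interval 0.530 to 1.12) in sst1.2-led cells and 0.668 in cells with no leading hormone.

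Of 12 measured receptors and uptake genes, 6 were at least 2-fold higher and 3 at least 2-fold lower in gcgr-/- cells, with a median log2 ratio of 0.77, against 34.3% higher and 24.9% lower over all genes. Mylipa, which targets the low density lipoprotein receptor for breakdown, was at 31.4 CPM in gcgr-/- cells and 35.7 CPM in control cells. Of 12 measured sterol regulators 5 were higher and 3 lower by that measure, with a median log2 ratio of 0.35, against 34.3%, 24.9% and a median of 0.26 over all genes. Srebf1, a transcription factor of fatty acid synthesis, was at 130 CPM in gcgr-/- cells and 21.2 CPM in control cells, with 78.6% of its counts in 1 cell. Of 6 measured genes of iron transport 5 were higher, tfa among them, and 1 was lower, the transferrin receptor tfr1b. It had no count in gcgr-/- cells and 39 counts in control cells, so it could only lie on the lower side. Tfr1b was named after its values were seen, and the spread of its counts over cells is not given here. Over all genes 34.3% were higher and 24.9% lower.

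Fatty acid binding proteins were divided, with 4 of 8 measured genes at least 2-fold higher and 4 at least 2-fold lower in gcgr-/- cells, against 34.3% and 24.9% of all genes. Fabp3 was at 159 CPM in gcgr-/- cells and 367 CPM in control cells and was counted in 126 cells. Of its 1749 control counts 1192 were in cells with no leading hormone, where the ratio was 0.50, and the ratio was 1.01 in ins-led, 1.16 in sst1.1-led and 2.28 in sst1.2-led cells. Fabp11a was at 169 CPM in gcgr-/- cells and 1.47 CPM in control cells, with 88.8% of its counts in 1 cell, and fabp7a at 117 CPM in gcgr-/- cells and 14.5 CPM in control cells, with 55.1% in 1 cell. Of 14 measured plasma protein genes 6 were higher and 3 lower, against 34.3% and 24.9% of all genes, with a median log2 ratio of 0.73. The complement genes cfb and c9 were at 355 and 291 CPM in gcgr-/- cells and at 488 and 400 CPM in control cells, and the retinol carrier gene rbp4 was at 4.57 CPM in gcgr-/- cells and 118 CPM in control cells. Of the 564 rbp4 counts in control cells 561 were in cells with no leading hormone, and 5 cells held 88.5% of all its counts.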

How the data were processed

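The authors trimmed reads with Trim Galore, aligned them to GRCz11 with STAR and assigned them to coding sequence with featureCounts, and the deposited values are raw counts of reads for each gene in each cell, with no collapsing of molecular identifiers stated. A table of all sequenced cells and a table of the cells left after the authors' filter, 197 gcgr-/- and 88 control cells, were deposited per sample. The rule by which they removed beta and delta cells is not given in the sources used here. The 8 members, the gene lists and the marker lists were chosen with earlier results of these data known.

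Here all sequenced cells were read, and 444 passed the filter on genes and mitochondrial counts. Doublets were not removed. Counts were summed per genotype and class and expressed as CPM, with exact Poisson, exact conditional (ratios) and Clopper-Pearson (shares) intervals at the 95% level. A sample at 0 was set at 3 counts, and no ratio was given where both samples were at or under 3. With 1 sample per genotype, no test between genotypes was made. Genes were measured with at least 10 counts over the cells compared. Named genes were the members, up to 5 genes of each list by CPM among those at 100 CPM in a class of at least 10 cells, and the 5 genes most like pltp and apoeb; tfr1b was named after its values were seen. The counts of the list of lipid transfer and remodelling are not reported here. Ratios and intervals were also computed on simulated Poisson counts around 1 profile shared by all cells. That setting holds neither the uneven spread over cells nor any PCR copies in these data, so it does not measure their error. No sequence or coordinate is printed. Alternatives were other scales, cell filters, limits and left-out cells or plates. Python 3.11.15, numpy 2.4.6, pandas 2.3.3, scipy 1.17.1 and matplotlib 3.10.9 were used.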

Additional observations from a re-analysis of the deposited data

Results flagged for a closer look

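The genotype ratio of pltp ran in different directions in different classes: 0.693 in ins-led cells, against 1.38 in sst1.1-led cells, 2.78 in sst1.2-led cells and 147 in cells with no leading hormone. That last class held unlike cells in the 2 genotypes, by gcga and by epithelial markers. The differences between these ratios were not tested, since each genotype had 1 sample, and the value for sst1.1-led cells fell to the other side of 1 without 1 cell. For apoeb the ratio was 0.0743 in ins-led cells and 0.0902 in cells with no leading hormone, against 4.52 in sst1.1-led and 1.66 in sst1.2-led cells, and these differences were not tested either.

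The cells that failed the filter, which enter no comparison above, also held pltp: 1139 CPM in 96 gcgr-/- cells (203 counts) and 141 CPM in 36 control cells (16 counts). Apoeb was at 95.4 CPM in the gcgr-/- cells and 2127 CPM in the control cells that failed.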

How the results depend on the processing

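No paired analysis was possible because each genotype had 1 sample. Alternatives without glucagon-led cells, without cells with no leading hormone and without cells with at least 5 epithelial markers were added after seeing the data, as were those of ratios within classes other than thinning and limits.

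The pltp ratio between genotypes was above 1 in all 16 alternatives: 6.33 as the mean of cell CPM, 6.06 thinned to 5000 counts, 9.31 in the cells the authors kept, 1.75 without glucagon-led cells, 3.46 without cells with no leading hormone, 3.99 without cells with 5 or more epithelial markers, and 3.71 to 5.24 leaving out 1 plate. Without both glucagon-led cells and cells with no leading hormone, a setting outside these 16, it was 0.903 (interval 0.836 to 0.975). The apoeb ratio was below 1 in all 16: 0.0949 as the mean of cell CPM, 0.0701 in the kept cells, 0.0674 without the highest cells, 0.109 without glucagon-led cells, 0.816 without cells with no leading hormone, 0.566 without cells with epithelial markers, and 0.0445 to 0.114 leaving out 1 plate. In the setting outside the 16 it was 1.0 (interval 0.802 to 1.26), with 118 and 60 of the 197 gcgr-/- counts in 1 cell each. The pltp ratio of glucagon-led over other gcgr-/- cells was 5.44 as the mean of cell CPM, 5.44 thinned, 2.70 in the kept cells, 5.11 at 750 detected genes, 7.03 and 1.48 with limits of 0.5% and 5%, and 3.49 to 6.85 leaving out 1 plate.

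Members at least 2-fold higher were 3 instead of 4 after thinning, in the kept cells and without glucagon-led cells. Only 4 members reached 10 counts after thinning and 5 in the kept cells, against 6 in the main setting and without glucagon-led cells. Members at least 2-fold lower were 1 instead of 2 after thinning, in the kept cells, without cells with no leading hormone and without cells with epithelial markers. Members held by 5 cells were 2 instead of 5 after thinning, when 4 members reached 10 counts. Pltp in glucagon-led gcgr-/- cells was 2947 CPM as the mean of cells, 3002 thinned, 2759 without hormone genes in the total, 2081 in the kept cells, 1888 without the highest cell, 2181 and 1452 with limits of 0.5% and 5%, and 1696 to 2406 leaving out 1 plate. Apoeb in control cells with no leading hormone was 1745 CPM as the mean of cells, 1832 thinned, 1951 in the kept cells, 2623 at 750 genes, 2089 without the highest cell, 1741 with a limit of 5%, and 2315 to 2497 leaving out 1 plate. Tfa in sst1.2-led gcgr-/- cells was 1743 CPM as the mean of cells, 1848 thinned, 1789 without hormone genes, 7034 in the kept cells, 513 without the highest cell, 1500 with a limit of 5%, and 672 to 1716 leaving out 1 plate.

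Ratios that crossed 1 were those of fabp10a (1.86 in the kept cells, with control at 0), pltp in sst1.1-led cells (0.805 as the mean of cells, 0.824 thinned, 0.775 without the highest cells, 0.830 to 1.80 leaving out 1 plate) and in sst1.2-led cells (0.952 to 6.02 leaving out 1 plate, 0.0630 with a limit of 5%), and apoeb in sst1.1-led cells (0.689 to 21.9 leaving out 1 plate, 0.685 with a limit of 5%) and in sst1.2-led cells (0.926 as the mean of cells, 0.158 in the kept cells, 0.0951 without the highest cells, 0.0194 to 8.61 leaving out 1 plate, 0.0134 with a limit of 5%). Where no value above shows the cause, the cause was not tested. Apoa1b, apoa2 and fabp10a rest on 3 to 6 cells. A sample with no count allows up to 0.292 CPM in gcgr-/- and 0.63 CPM in control, for reads on coding sequence only.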
